A study of Mus musculus with 6 samples.

Results

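Endothelial cells line the blood vessels of the liver, and those of the sinusoids, its capillaries, are perforated by open pores and clear waste proteins from the blood through scavenger receptors. They lie against hepatic stellate cells, pericytes that store retinoids, and a preparation of stellate cells can carry some of them along. The genes described here are 38 genes known from liver endothelial cells. They cover cell junctions, the vessel surface, scavenging, capillary transport, signalling receptors and transcription factors, and all 38 were found, by NCBI gene identifier, among the 17909 genes listed in at least 1 library.

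RNA was sequenced from primary mouse stellate cells kept in culture to day 1, with 3 libraries of each of 2 genotypes. The HAS2_Tg group (replicates 4, 5 and 6) carried the ASMA-HAS2 transgene, which puts human HAS2, a hyaluronan synthase, under the alpha smooth muscle actin promoter and so in cells that use that promoter. The Has2_KO group (replicates 7, 8 and 9) carried floxed Has2 alleles and Lrat-Cre, which deletes Has2 in stellate cells. Per the labels, both came from male C57BL/6 mice of 24 weeks, both were depleted of macrophages with Cd11b microbeads, and both attached for 4 h and grew for another 14 h in medium with 10% serum. The labels do not say whether the libraries of a group came from separate mice, so p-values measure the spread between these libraries. A wild-type group was not analysed here. The mouse gene Has2 had 847, 889 and 835 counts in the HAS2_Tg libraries, against 1 count in each Has2_KO library. Whether reads of the human transgene are among these counts was not tested.

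Total expected counts were 11961726 to 12231327 in HAS2_Tg libraries and 12364822 to 12423220 in Has2_KO libraries. Stellate cell markers were present in both genotypes. The 25 genes of that list summed to 25857 to 29796 CPM (counts scaled to a common depth by the TMM method) in HAS2_Tg and 15812 to 16640 CPM in Has2_KO. Of the 25, 21 were higher in HAS2_Tg, beside 20.2% of all genes tested. Only 1, Pdgfra (168 CPM in HAS2_Tg, 282 in Has2_KO), was lower, beside 20.5% of all genes. Of the defining stellate genes, Lrat, which esterifies retinol, averaged 102 ± 3.24 CPM in the HAS2_Tg libraries and 25.9 ± 2.08 in the Has2_KO libraries (SD, n = 3 each). Reln, the secreted glycoprotein reelin, averaged 1575 ± 231 CPM in the HAS2_Tg libraries and 1591 ± 74.9 in the Has2_KO libraries and did not pass the test. Acta2, the smooth muscle actin itself, was the highest gene of the list in HAS2_Tg but not in Has2_KO (5904 CPM in HAS2_Tg, 1196 in Has2_KO), where the highest were the proteoglycans Dcn (4307 CPM in HAS2_Tg, 3343 in Has2_KO) and Bgn (4117 CPM in HAS2_Tg, 3094 in Has2_KO).

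Most of the endothelial genes were nearly absent from HAS2_Tg libraries and present in Has2_KO libraries, while 3 were higher in HAS2_Tg. By edgeR's quasi-likelihood test, 34 of the 38 were lower in HAS2_Tg, beside 20.5% of all 13014 genes tested, and 3 were higher, beside 20.2% of all genes; Clec14a did not pass. In all, 40.7% of genes passed, of which 49.5% were higher in HAS2_Tg. Scaled by total counts, that share was 23.4%, and 35 of the 38 genes were lower and 2 higher. The mean level in HAS2_Tg was under 5% of that in Has2_KO for 24 of the 38, beside 2.25% of all genes tested, and under 1% for 16, beside 0.807%. As CPM, the groups of libraries did not overlap for any of the 38, beside 52.2% of all genes. The median log2 fold change over the 38 was -5.86, or -5.60 with the genes that had no count in HAS2_Tg placed at their bound, beside -0.01 over all genes tested. For 26 of the 38, fewer than 3 HAS2_Tg libraries reached the low-count filter, so these genes needed Has2_KO libraries to enter the test. For 22 of them every HAS2_Tg library held fewer than 10 counts, so these 22 had to be lower. In bulk libraries, fewer endothelial cells and less of these RNAs per cell cannot be told apart.

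**Figure D1:**
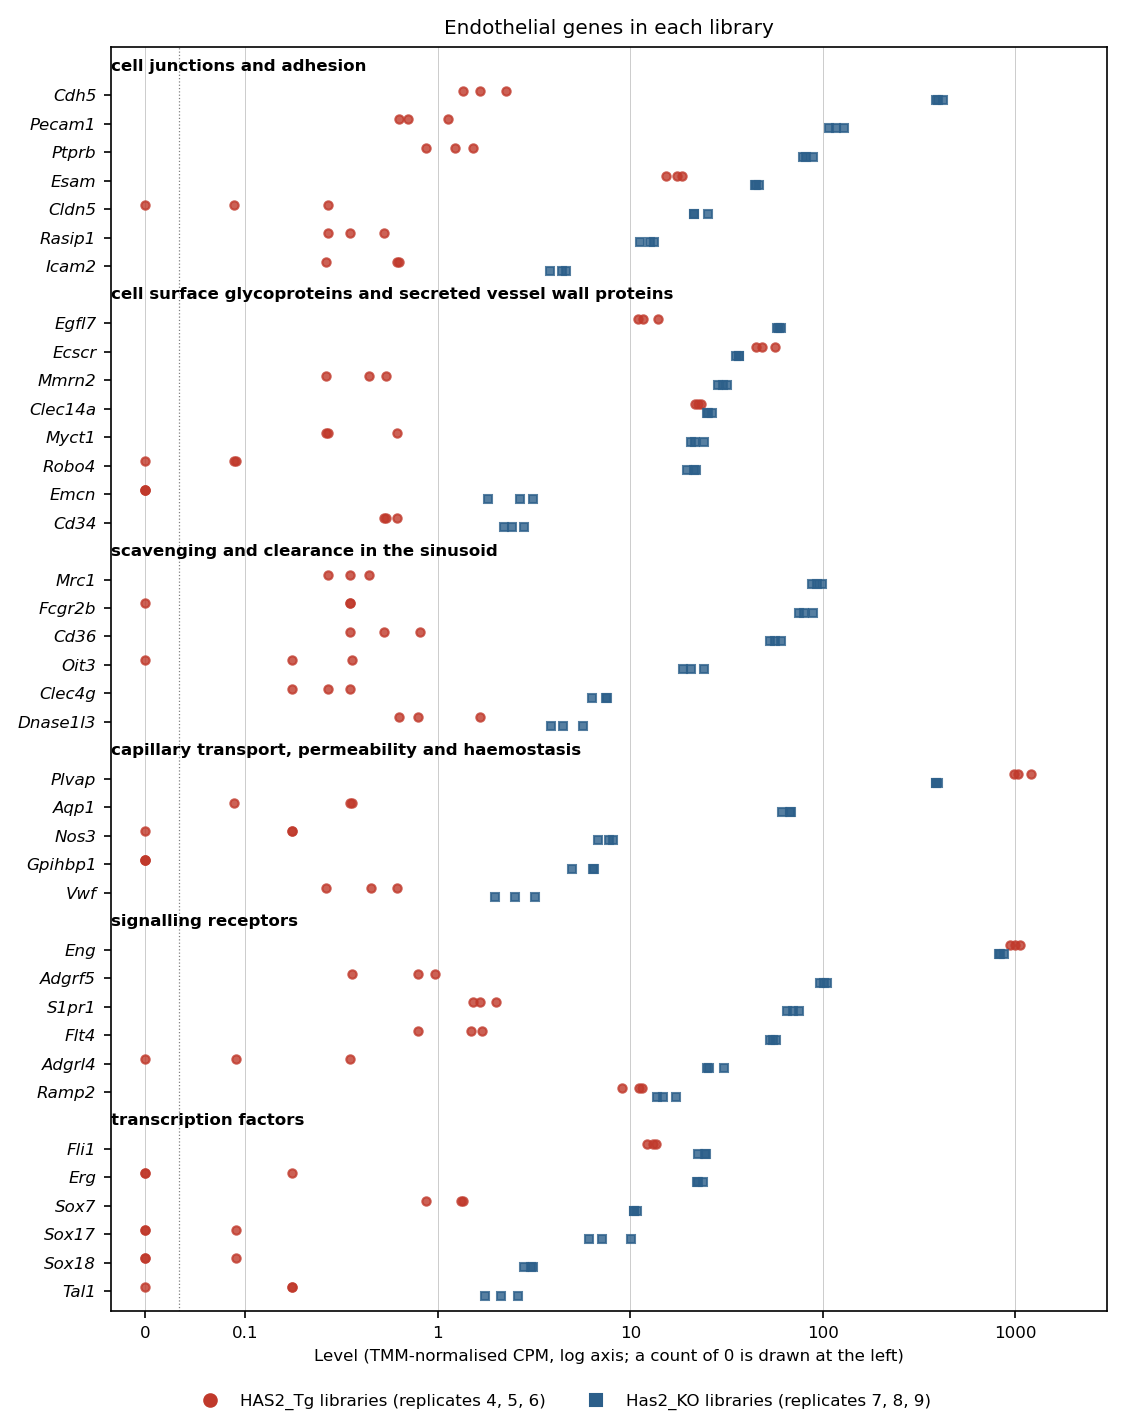
Level of each endothelial gene in each library, as TMM-normalised CPM on a log axis, ordered by role; circles are HAS2_Tg libraries and squares Has2_KO libraries, and a count of 0 is drawn at the left edge. Cdh5 averages 1.76 CPM in HAS2_Tg and 402 CPM in Has2_KO, while the Plvap circles lie to the right of its squares.

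Among junction and adhesion genes, all 7 were lower in HAS2_Tg. For Cldn5, Rasip1 and Icam2, no HAS2_Tg library reached the low-count filter, so their direction was fixed. Pecam1 fell short of the filter in at least 1 HAS2_Tg library and needed Has2_KO libraries to enter the test. Cdh5, VE-cadherin, which holds endothelial cells together at adherens junctions, had 15, 26 and 19 expected counts in the HAS2_Tg libraries, against 5554, 5217 and 5100 in the Has2_KO libraries. Each HAS2_Tg library therefore lay far below each Has2_KO library (log2 fold change -7.83, SE 0.13, edgeR adjusted p = 7.36e-15). Pecam1, the adhesion receptor CD31, which platelets and leukocytes also carry, had 7, 13 and 8 counts in HAS2_Tg and 1705, 1544 and 1413 in Has2_KO (log2 fold change -7.15, SE 0.16). Cldn5, a claudin of tight junctions, had 3, 1 and 0 counts in HAS2_Tg and 281, 283 and 333 in Has2_KO. Ptprb, a receptor phosphatase that acts on the VE-cadherin complex, had a log2 fold change of -6.10 (SE 0.14), and Rasip1, which endothelial cells need to open a lumen, one of -4.98 (SE 0.24). Cdh5, Pecam1, Cldn5, Ptprb and Rasip1 were at 0.437% to 3.07% of their Has2_KO level. Esam, an immunoglobulin-like adhesion molecule, kept far more, with 207, 201 and 176 counts in HAS2_Tg and 589, 618 and 582 in Has2_KO, 37.8% of the Has2_KO level (log2 fold change -1.40, SE 0.10). Icam2, a ligand of leukocyte integrins, had 11.7% (log2 fold change -3.08, SE 0.30).

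Genes of the endothelial surface and of secreted vessel wall proteins were the most mixed group, with 6 of 8 lower, 1 higher and 1 that did not pass. For Robo4, Emcn, Mmrn2, Myct1 and Cd34, no HAS2_Tg library reached the low-count filter, so their direction was fixed. Robo4, the roundabout receptor of endothelial cells, had 1, 1 and 0 counts in HAS2_Tg and 282, 259 and 289 in Has2_KO. The ratio of group sums, scaled by library size, was 358-fold lower in HAS2_Tg, with a 95% exact interval of 98.9 to 2964. Its promoter window in RefSeq is shown because the gene is among those most nearly absent from HAS2_Tg; it runs from 250 bases before to 50 after the start, at chr9:37401722-37402021 on the plus strand (GRCm38.p6). Capitals mark the letters AGGAAG, the core bound by ETS factors such as Erg and Fli1, and the E-box CAGCTG.
Robo4 promoter: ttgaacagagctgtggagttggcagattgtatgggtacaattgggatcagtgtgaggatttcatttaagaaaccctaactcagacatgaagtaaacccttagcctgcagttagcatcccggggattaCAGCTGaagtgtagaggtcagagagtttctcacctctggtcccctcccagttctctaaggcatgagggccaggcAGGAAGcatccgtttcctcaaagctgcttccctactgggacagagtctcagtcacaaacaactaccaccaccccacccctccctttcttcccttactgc

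Emcn, the sialomucin endomucin, had no count in any HAS2_Tg library and 35, 24 and 41 counts in Has2_KO, which puts it at least 28.78-fold lower in HAS2_Tg when the summed HAS2_Tg count is set to a floor of 3. Mmrn2, a matrix glycoprotein of the vessel wall that binds Clec14a, had 6, 5 and 3 counts in HAS2_Tg and 418, 375 and 395 in Has2_KO (log2 fold change -6.16, SE 0.19). Clec14a, a C-type lectin domain receptor of endothelial cells, had 250, 267 and 249 counts in HAS2_Tg and 329, 335 and 348 in Has2_KO (log2 fold change -0.19, SE 0.09, edgeR adjusted p = 0.107), so it did not pass, although its groups did not overlap. Scaled by total counts, which shifts the median of all genes tested to -0.18, it passed as lower (-0.36, edgeR adjusted p = 0.00462). It also passed as lower in the fits on FPKM. Myct1, a target of Myc, had a log2 fold change of -5.83 (SE 0.22), and Cd34, a sialomucin that some fibroblasts and blood progenitors also make, one of -2.13 (SE 0.30), with 6, 7 and 6 counts in HAS2_Tg and 37, 32 and 29 in Has2_KO.

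Ecscr, a cell surface regulator of endothelial migration, was 1 of the 3 genes higher in HAS2_Tg. It had 627, 556 and 514 counts there, against 467, 485 and 479 in Has2_KO (log2 fold change 0.46, SE 0.09, edgeR adjusted p = 0.00105). Every HAS2_Tg library lay above every Has2_KO library, by a small margin. The gap was within 1.5-fold, and the test against that fold did not pass.

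Egfl7, a protein that endothelial cells secrete and whose gene hosts the microRNA miR-126, had 155, 133 and 125 counts in HAS2_Tg and 800, 761 and 773 in Has2_KO (log2 fold change -2.28, SE 0.10). It differed between genotypes in a further measure, the mean transcript length that RSEM deposits for each gene, which is weighted by the share of each transcript. That length was 1210, 1202 and 1209 bases in HAS2_Tg and 1374, 1366 and 1363 bases in Has2_KO. All 3 HAS2_Tg libraries were shorter (exact permutation test, two-sided, p = 0.1, the smallest that 3 against 3 libraries allow). The files name 4 RefSeq transcripts of Egfl7, which in the GENCODE annotation of GRCm38 start at 26581056, 26583864, 26583880 and 26586630 on the plus strand of chromosome 2 and measure 1391, 1348, 1372 and 1163 bases. The mean in HAS2_Tg libraries lay nearest to the length of the transcript with the last start, and the mean in Has2_KO libraries among the other 3. Reads per transcript are not in the files, so which start was used was not measured here. The windows around the 3 separate starts are shown because they belong to the transcripts that differ in length; capitals mark AGGAAG and CAGCTG on either strand, so that AGGAAG on the minus strand reads CTTCCT.
Egfl7 first start, chr2:26580833-26581132, plus strand: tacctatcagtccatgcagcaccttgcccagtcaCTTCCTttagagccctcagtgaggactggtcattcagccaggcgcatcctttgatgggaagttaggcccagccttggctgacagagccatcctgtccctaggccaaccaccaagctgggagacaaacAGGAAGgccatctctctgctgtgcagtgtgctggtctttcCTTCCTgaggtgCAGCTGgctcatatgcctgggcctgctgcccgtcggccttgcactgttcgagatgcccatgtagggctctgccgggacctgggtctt
Egfl7 second start, chr2:26583615-26583914, plus strand: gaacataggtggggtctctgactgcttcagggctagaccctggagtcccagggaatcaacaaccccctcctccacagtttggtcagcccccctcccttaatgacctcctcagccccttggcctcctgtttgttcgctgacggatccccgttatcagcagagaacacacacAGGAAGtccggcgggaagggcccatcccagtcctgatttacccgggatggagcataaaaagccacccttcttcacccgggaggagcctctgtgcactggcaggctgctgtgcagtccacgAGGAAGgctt
Egfl7 last start, chr2:26586386-26586685, plus strand: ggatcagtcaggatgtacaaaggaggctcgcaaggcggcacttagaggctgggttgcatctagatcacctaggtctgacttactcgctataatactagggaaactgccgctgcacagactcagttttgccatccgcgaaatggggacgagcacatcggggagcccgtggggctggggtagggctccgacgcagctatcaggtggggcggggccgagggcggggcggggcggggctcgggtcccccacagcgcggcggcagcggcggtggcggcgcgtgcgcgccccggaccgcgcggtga

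The last window holds none of the marked letters, the second holds AGGAAG at 2 places and the first holds them at 3 places beside the E-box. These matches are descriptions of letters and not of bound sites.

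**Figure D2:**
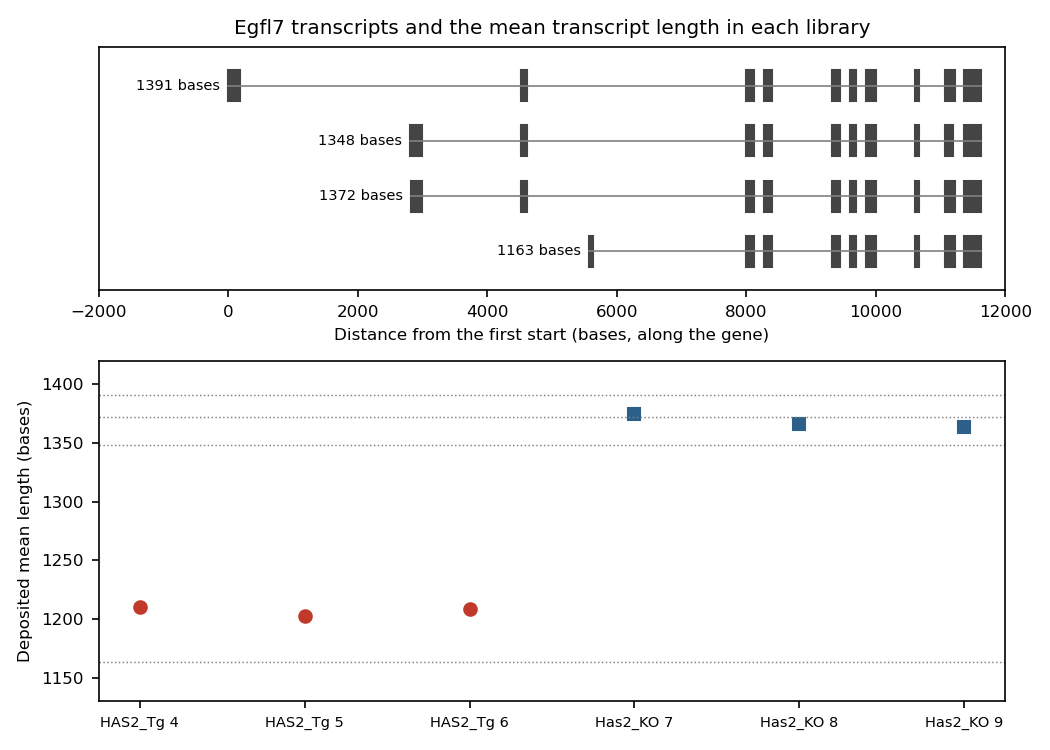
Above, the 4 RefSeq transcripts of Egfl7 drawn along the gene in bases from the first start, with exons as boxes; below, the deposited mean transcript length in bases in each library (circles HAS2_Tg, squares Has2_KO), with dotted lines at the transcripts' own lengths. The HAS2_Tg libraries sit between 1202 and 1210 bases, below the Has2_KO libraries at 1363 to 1374 bases.

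Of the other members, 4 had a deposited length that varied and was listed in every library. Pecam1 measured 3248 bases in each HAS2_Tg library and 3279 to 3285 bases in Has2_KO, and Cd36 3399 to 3450 bases in HAS2_Tg and 3489 to 3538 bases in Has2_KO. Both rested on 13 or fewer counts per HAS2_Tg library. The lengths of Cd34 and Eng overlapped between the groups.

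Scavenging and clearance genes, which mark the sinusoidal endothelium, were lower in HAS2_Tg in all 6 cases. All 6 fell short of the low-count filter in at least 1 HAS2_Tg library and needed Has2_KO libraries to enter the test. For all but Dnase1l3, no HAS2_Tg library reached the filter, so their direction was fixed. Mrc1, the mannose receptor of sinusoidal endothelium and macrophages, had 3, 5 and 4 counts in HAS2_Tg and 1303, 1156 and 1221 in Has2_KO (log2 fold change -8.01, SE 0.16, edgeR adjusted p = 3.05e-14). Fcgr2b, the inhibitory Fc receptor through which sinusoids remove small immune complexes, had 0, 4.49 and 4 expected counts in HAS2_Tg and 1166, 1054 and 989.8 in Has2_KO (log2 fold change -8.38, SE 0.23). Cd36, a scavenger and fatty acid receptor, had 9, 6 and 4 counts in HAS2_Tg and 697, 742 and 797 in Has2_KO (-6.64, SE 0.18). All 3 of these receptors were therefore at the edge of detection in each HAS2_Tg library and well detected in each Has2_KO library. Oit3, a marker of sinusoidal endothelium, had 4, 0 and 2 counts in HAS2_Tg and 247, 318 and 271 in Has2_KO, and Clec4g, the lectin LSECtin, 3, 2 and 4 in HAS2_Tg and 99, 98 and 83 in Has2_KO. Dnase1l3, a secreted DNase that digests circulating chromatin, was the mildest of the group, at 21.9% of the Has2_KO level (log2 fold change -2.17, SE 0.30).

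Macrophages also make Mrc1, Fcgr2b, Cd36 and Dnase1l3, and their markers moved the same way. Of 20 Kupffer cell and macrophage markers listed, 19 were tested and 19 were lower in HAS2_Tg, beside 20.5% of all genes tested. Of these, 14 fell short of the low-count filter in at least 1 HAS2_Tg library. Those 14 needed Has2_KO libraries to enter the test, which favoured a lower direction. The list had summed levels of 16.3 to 18.5 CPM in HAS2_Tg and 723 to 778 CPM in Has2_KO. Clec4f and Timd4, which define Kupffer cells, had no count in HAS2_Tg, against 80, 61 and 79 counts and 3, 8 and 9 counts in Has2_KO. The highest were Cd68 (6.38 CPM in HAS2_Tg, 69.8 in Has2_KO), Lyz2 (2.32 CPM in HAS2_Tg, 190.3 in Has2_KO) and Ctss (1.68 CPM in HAS2_Tg, 87.0 in Has2_KO). The part of macrophage RNA in the scavenging genes was not tested.

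Among genes of capillary transport and haemostasis, 4 of 5 were lower in HAS2_Tg and Plvap was higher. For the 4 lower genes, no HAS2_Tg library reached the low-count filter, so their direction was fixed. Plvap, which forms the diaphragms of fenestrae and caveolae and is also made by stellate cells, had 13407, 11335 and 11826 counts in HAS2_Tg and 5074, 5123 and 5220 in Has2_KO. The lowest HAS2_Tg library held more than any Has2_KO library (log2 fold change 1.46, SE 0.08, edgeR adjusted p = 2.97e-09). Aqp1, a water channel that bile duct cells also carry, ran the other way, with 4, 1 and 4 counts in HAS2_Tg and 891, 903 and 800 in Has2_KO (log2 fold change -7.90, SE 0.19). Gpihbp1, which anchors lipoprotein lipase to capillaries, had no count in HAS2_Tg and 85, 84 and 65 counts in Has2_KO, at least 67.3-fold lower. Nos3, the endothelial nitric oxide synthase, had 0, 2 and 2 counts in HAS2_Tg and 107, 102 and 89 in Has2_KO (-5.89, SE 0.36). Vwf, the platelet-binding glycoprotein of larger vessels and of platelets, was low in both genotypes, with 5, 7 and 3 counts in HAS2_Tg and 42, 26 and 33 in Has2_KO (-2.51, SE 0.36).

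The signalling receptors were led by Eng, endoglin, a co-receptor for TGF-beta and BMP ligands that stellate cells also make. It had 11776, 11379 and 10758 counts in HAS2_Tg and 10813, 11583 and 10946 in Has2_KO, ranges that overlap before scaling. As CPM the groups parted, at 996.2 ± 58.2 in HAS2_Tg and 845 ± 29.5 in Has2_KO (SD, n = 3 each; log2 fold change 0.24, SE 0.08, edgeR adjusted p = 0.0220). This call ended with total counts (0.06, adjusted p = 0.510), in the fits on FPKM (0.06, limma adjusted p = 0.498 to 0.522), and without Has2_KO replicate 7 (0.22, adjusted p = 0.102) or 9 (0.23, adjusted p = 0.0878). The Eng window is shown beside that of Robo4 as a gene with a high level in both genotypes; it lies at chr2:32646345-32646644 on the plus strand, with the letters AGGAAG, on either strand, in capitals at 2 places.
Eng promoter: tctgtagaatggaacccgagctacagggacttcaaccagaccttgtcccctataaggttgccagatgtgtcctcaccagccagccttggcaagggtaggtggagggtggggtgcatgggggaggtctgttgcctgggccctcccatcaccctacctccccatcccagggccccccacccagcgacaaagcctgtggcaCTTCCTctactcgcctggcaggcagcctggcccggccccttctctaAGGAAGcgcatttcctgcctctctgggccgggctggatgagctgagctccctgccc

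The other 5 receptors were lower in HAS2_Tg. For Adgrl4, no HAS2_Tg library reached the low-count filter, so its direction was fixed. Adgrf5 and Flt4 fell short of the filter in at least 1 HAS2_Tg library and needed Has2_KO libraries to enter the test. Adgrf5, an adhesion G protein-coupled receptor, had 3.59, 8.6 and 11.2 expected counts in HAS2_Tg and 1381, 1283 and 1329 in Has2_KO (log2 fold change -7.15, SE 0.16), and Adgrl4, of the same receptor class, 1, 4 and 0 in HAS2_Tg and 405, 337 and 327 in Has2_KO. S1pr1, the sphingosine 1-phosphate receptor that steadies the endothelial barrier, had 17, 19 and 23 counts in HAS2_Tg and 920, 998 and 859 in Has2_KO (-5.34, SE 0.13), and Flt4, the VEGF-C receptor, 19, 9 and 17 in HAS2_Tg and 755, 731 and 693 in Has2_KO (-5.37, SE 0.16). Each of these was at 2.46% or less of its Has2_KO level. Ramp2, the partner of the adrenomedullin receptor, differed least, with 124, 132 and 103 counts in HAS2_Tg and 180, 194 and 227 in Has2_KO (-0.53, SE 0.13, edgeR adjusted p = 0.00475).

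All 6 transcription factors were lower in HAS2_Tg, by very different amounts, beside 20.5% of all genes tested. For Erg, Sox17, Sox18 and Tal1, no HAS2_Tg library reached the low-count filter, so their direction was fixed. Erg, an ETS factor that keeps endothelial identity, had 0, 2 and 0 counts in HAS2_Tg and 297, 316 and 292 in Has2_KO, 391-fold lower by group sums (95% exact interval 108 to 3231). Fli1, the ETS factor most like it, which blood and mesenchymal cells also use, kept 54.2% of its Has2_KO level, with 136, 155 and 150 counts in HAS2_Tg and 326, 295 and 321 in Has2_KO (log2 fold change -0.88, SE 0.10, edgeR adjusted p = 5.00e-06). The 3 SOX factors of the F group, which act in vessel growth, differed as well. Sox17, known from arterial endothelium, had 1, 0 and 0 counts in HAS2_Tg and 133, 94 and 80 in Has2_KO, 265-fold lower by group sums (95% exact interval 47.2 to 10504). Sox18 had 1, 0 and 0 counts in HAS2_Tg and 37, 40 and 41 in Has2_KO, 102-fold lower (17.9 to 4058). Sox7 had 15.0, 9.81 and 15 expected counts in HAS2_Tg and 143, 137 and 137 in Has2_KO, 11.1% of the Has2_KO level (log2 fold change -3.16, SE 0.19). Tal1, a factor of blood and endothelial development, had 0, 2 and 2 counts in HAS2_Tg and 23, 28 and 34.0 in Has2_KO (-4.08, SE 0.50). One of 3 Erg windows in RefSeq, at chr16:95459299-95459598 on the minus strand, is shown because it holds letters of 3 motifs, in capitals: the SOX motif ACAATG (here CATTGT), the GATA motif AGATAA (here TTATCT) and the ETS core AGGAAG (here CTTCCT).
Erg promoter: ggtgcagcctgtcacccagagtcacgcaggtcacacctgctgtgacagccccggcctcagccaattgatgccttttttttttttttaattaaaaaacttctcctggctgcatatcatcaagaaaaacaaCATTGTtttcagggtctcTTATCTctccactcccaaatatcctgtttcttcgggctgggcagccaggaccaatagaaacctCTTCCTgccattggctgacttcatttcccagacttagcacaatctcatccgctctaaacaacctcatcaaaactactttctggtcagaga

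RefSeq promoter windows were at hand for 19 of the 38 genes, 25 windows in all. The ETS letters CCGGAA stood in 1 of the 25 (4%), beside 14.9% of all 32851 windows, and AGGAAG, another ETS core that was chosen after the first count was seen, in 14 (56%), beside 35.4%. AGATAA stood in 3 of 25 (12%), beside 11.2% of all windows, ACAATG in 3 (12%), beside 12.6%, and CAGCTG in 2 (8%), beside 16.3%. Both strands were searched, the motifs do not overlap in the windows shown, and a match or its absence says nothing about the factor.

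Per gene length, the members separated into 2 ranges in HAS2_Tg. As FPKM, fragments scaled for gene length and depth, 8 genes averaged 3.93 or more in HAS2_Tg and the other 30 averaged 0.533 or less. The 8 were Plvap, at 497 FPKM in HAS2_Tg and 204 in Has2_KO, Eng, at 270.5 in HAS2_Tg and 259 in Has2_KO, and Ecscr, at 42.9 in HAS2_Tg and 35.3 in Has2_KO. Then came Ramp2, at 11.7 FPKM in HAS2_Tg and 19.0 in Has2_KO, Egfl7, at 9.58 in HAS2_Tg and 46.4 in Has2_KO, and Esam, at 8.71 in HAS2_Tg and 26.0 in Has2_KO. The lowest were Clec14a, at 4.62 FPKM in HAS2_Tg and 5.95 in Has2_KO, and Fli1, at 3.93 in HAS2_Tg and 8.17 in Has2_KO. In Has2_KO only Vwf (0.303 FPKM) and Tal1 (0.543 FPKM) averaged under 1 FPKM. The highest levels there were those of Eng and Plvap, followed by Cdh5 (0.413 FPKM in HAS2_Tg, 106 in Has2_KO), Fcgr2b (0.167 FPKM in HAS2_Tg, 61.4 in Has2_KO) and Egfl7. The ratio of Plvap to Eng FPKM was 1.94, 1.70 and 1.88 in HAS2_Tg libraries and 0.801, 0.755 and 0.814 in Has2_KO libraries, so the order of the 2 genes differed between the genotypes.

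**Figure D3:**
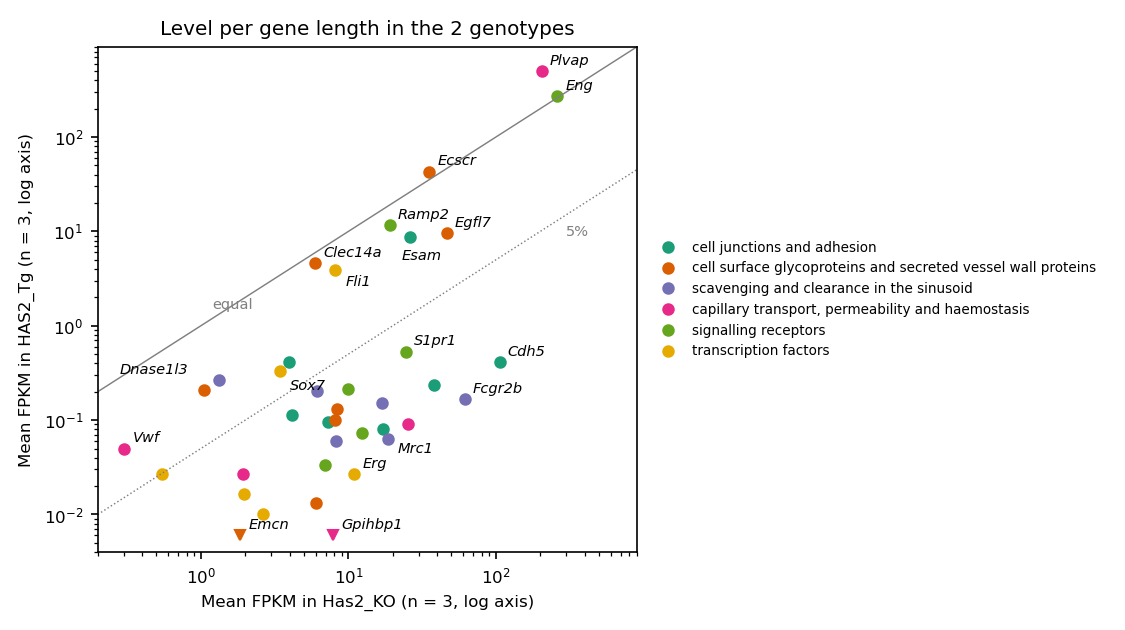
Mean FPKM of each endothelial gene in HAS2_Tg (vertical, log axis) against Has2_KO (horizontal, log axis), n = 3 libraries each, coloured by role; the solid line marks equal levels, the dotted line 5% of the Has2_KO level, and triangles mark genes with no count in HAS2_Tg. A group of 8 genes from Fli1 at 3.93 FPKM in HAS2_Tg up to Plvap at 497 FPKM lies apart from the rest, which are at 0.533 FPKM or less there.

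Eng and Plvap alone made up 93.3% to 93.8% of all member counts in HAS2_Tg libraries and 42.5% to 44.9% in Has2_KO libraries, so sums over the 38 genes mainly followed them. Together the 38 made up 0.208 ± 0.0138% of a HAS2_Tg library and 0.298 ± 0.00466% of a Has2_KO library (SD, n = 3 each). Without the 8 members also known from stellate and other mesenchymal cells (Eng, Plvap, Cd34, Aqp1, S1pr1, Ramp2, Cd36 and Fli1), the share was 0.0107% in HAS2_Tg and 0.142% in Has2_KO. Most of that HAS2_Tg share came from Ecscr, Clec14a, Esam and Egfl7, at 49.9, 22.5, 17.2 and 12.1 CPM there. Of the 8 left out, 2 were higher and 6 lower in HAS2_Tg, with a median log2 fold change of -1.51. The 24 genes under 5% summed to 10.9, 11.3 and 11.2 CPM in HAS2_Tg and to 1400, 1325 and 1299 CPM in Has2_KO. They were picked by that gap in these same libraries, so a gap in their sum was fixed in advance. Within Has2_KO, 13 of the 24 were highest in replicate 7, 5 in replicate 8 and 6 in replicate 9. The coefficient of variation over the Has2_KO libraries had a median of 7.08% over the 38 genes and ranged from 1.69% for Plvap to 26.7% for Sox17.

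Relative to the Cdh5 count, members kept different proportions. Mrc1 had 20.0% of the Cdh5 count in HAS2_Tg and 23.2% in Has2_KO, Aqp1 15.0% in HAS2_Tg and 16.3% in Has2_KO, and Fcgr2b 14.2% in HAS2_Tg and 20.2% in Has2_KO. For Egfl7 the share was 688% in HAS2_Tg and 14.7% in Has2_KO, and for Esam 973% in HAS2_Tg and 11.3% in Has2_KO. Pecam1 stood between, at 46.7% in HAS2_Tg and 29.4% in Has2_KO. Several nearly absent genes shifted too: S1pr1 had 98.3% in HAS2_Tg and 17.5% in Has2_KO, and Flt4 75.0% in HAS2_Tg and 13.7% in Has2_KO. For Rasip1 the share was 21.7% in HAS2_Tg and 3.08% in Has2_KO, for Clec4g 15.0% in HAS2_Tg and 1.76% in Has2_KO, and for Nos3 6.67% in HAS2_Tg and 1.88% in Has2_KO. The HAS2_Tg values rest on 60 Cdh5 counts over 3 libraries. Many also rest on few counts of the gene itself over those libraries: 12 for Mrc1, 9 for Aqp1, 13 for Rasip1, 9 for Clec4g and 4 for Nos3.

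Another 45 endothelial genes, not among the 38, were listed for comparison. They summed to 1715.5 to 1785.5 CPM in HAS2_Tg and 2390.4 to 2424.3 CPM in Has2_KO. Of 42 tested, 32 were lower in HAS2_Tg, beside 20.5% of all genes tested, with a median log2 fold change of -1.71 over the 42. Another 7 were higher, a smaller share than the 20.2% of all genes tested. Of the lower ones, 15 needed Has2_KO libraries to enter the test. The lower genes with the smallest adjusted p included the scavenger receptor Stab1 (log2 fold change -5.25, SE 0.12), the lectin-like receptor Cd93 (-5.05, SE 0.13), the orphan receptor Tie1 (-6.85, SE 0.19) and Kdr, the main VEGF receptor (-7.16, SE 0.21). Nrp2, a co-receptor for VEGF-C, had a log2 fold change of -2.99 (SE 0.11) and the transcription cofactor Lmo2 one of -3.93 (SE 0.18). The higher ones were led by Tspan7, a tetraspanin (1.16, SE 0.09), the transcription factor Klf4 (0.73, SE 0.08), the ligand Efnb2 (0.62, SE 0.08), Gata4 (0.47, SE 0.08), a factor of both sinusoidal endothelium and stellate cells, the co-receptor Nrp1 (0.50, SE 0.08) and the flow-induced factor Klf2 (0.44, SE 0.08).

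**Figure D4:**
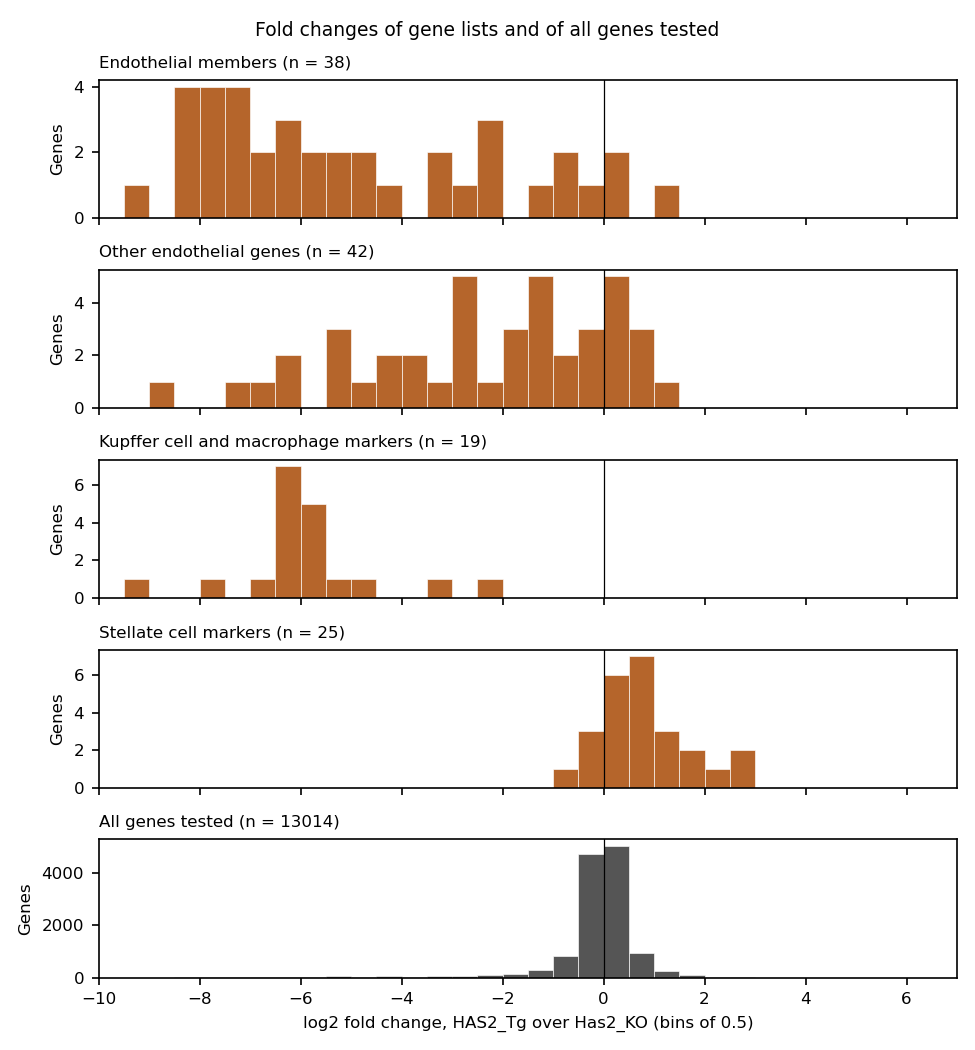
Number of genes by log2 fold change of HAS2_Tg over Has2_KO, in bins of 0.5, for the 38 endothelial members, the 42 tested other endothelial genes, 19 Kupffer cell and macrophage markers, 25 stellate cell markers and all 13014 genes tested. The members have a median of -5.86 and reach up to 1.46, while all genes tested centre near -0.01. Gpihbp1 and Emcn (members), Selp (other endothelial genes) and Clec4f (macrophage markers) had no count in HAS2_Tg. Their values, which include the lowest bar of each of these lists, are fitted and are not measured sizes.

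Markers of other liver cells also differed between the same libraries. The 17 hepatocyte markers listed summed to 24.7 to 26.0 CPM in HAS2_Tg and 63.2 to 80.1 CPM in Has2_KO. Hnf4a, Asgr1 and Ambp were at 0 in HAS2_Tg, and 9 of 10 tested were lower, beside 20.5% of all genes tested. All 9 fell short of the filter in at least 1 HAS2_Tg library, so they needed Has2_KO libraries to enter the test. For all but Alb and Cyp2e1, no HAS2_Tg library reached the filter, which fixed their direction. The iron carrier Trf made up most of the HAS2_Tg sum (22.1 CPM in HAS2_Tg, 25.6 in Has2_KO), whereas albumin, Alb, had 0.878 CPM in HAS2_Tg and 23.4 in Has2_KO and the drug-metabolising enzyme Cyp2e1 1.14 CPM in HAS2_Tg and 5.83 in Has2_KO. The 9 cholangiocyte markers summed to 3.31 to 3.77 CPM in HAS2_Tg and 28.1 to 31.5 CPM in Has2_KO. Epcam and Krt18 were at 0 in HAS2_Tg. All 4 tested were lower, 3 of which needed Has2_KO libraries to enter the test. The highest were Spp1 (0.855 CPM in HAS2_Tg, 18.7 in Has2_KO) and Sox9 (2.23 CPM in HAS2_Tg, 4.49 in Has2_KO). Of 7 neutrophil markers, 3 were tested and 2 were lower, 1 of which (Mmp8) reached the filter only through Has2_KO. The list had sums of 30.1 to 34.8 CPM in HAS2_Tg and 37.2 to 40.1 CPM in Has2_KO, with S100a8, Camp and Elane at 0 in HAS2_Tg. Most of both sums was Cxcr2 (31.4 CPM in HAS2_Tg, 30.8 in Has2_KO), ahead of Csf3r (1.52 CPM in HAS2_Tg, 3.52 in Has2_KO) and Mmp8 (0.0581 CPM in HAS2_Tg, 3.70 in Has2_KO). None of the 7 T, NK and B cell markers reached the filter; they summed to 1.13 to 1.88 CPM in HAS2_Tg and 2.29 to 2.81 CPM in Has2_KO, with Cd3e and Nkg7 at 0 in HAS2_Tg and Cd8a, Cd79a and Cd3d highest, each under 1 CPM. The 7 platelet and erythroid markers summed to 8.83 to 10.2 CPM in HAS2_Tg and 19.9 to 21.5 CPM in Has2_KO, with Ppbp at 0 in HAS2_Tg. Of the 2 tested, Itga2b was higher (7.95 CPM in HAS2_Tg, 3.80 in Has2_KO) and Pf4 lower (1.15 CPM in HAS2_Tg, 16.3 in Has2_KO). Of 13 genes of mesothelium, portal fibroblasts and vascular smooth muscle, 8 were tested. Among these, 4 were higher, beside 20.2% of all genes tested, and 3 lower, beside 20.5%. Of the lower ones, 2 (Wt1 and Thy1) reached the filter only through Has2_KO. The list had sums of 1673 to 1975 CPM in HAS2_Tg and 400.1 to 426 CPM in Has2_KO, with Upk3b and Gpm6a at 0 in HAS2_Tg. The contractile genes Myh11 (1270.4 CPM in HAS2_Tg, 108 in Has2_KO), Lmod1 (329 CPM in HAS2_Tg, 62.1 in Has2_KO) and Smtn (226 CPM in HAS2_Tg, 195 in Has2_KO) led that list. The part of these cells in the endothelial differences was not tested.

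**Figure D5:**
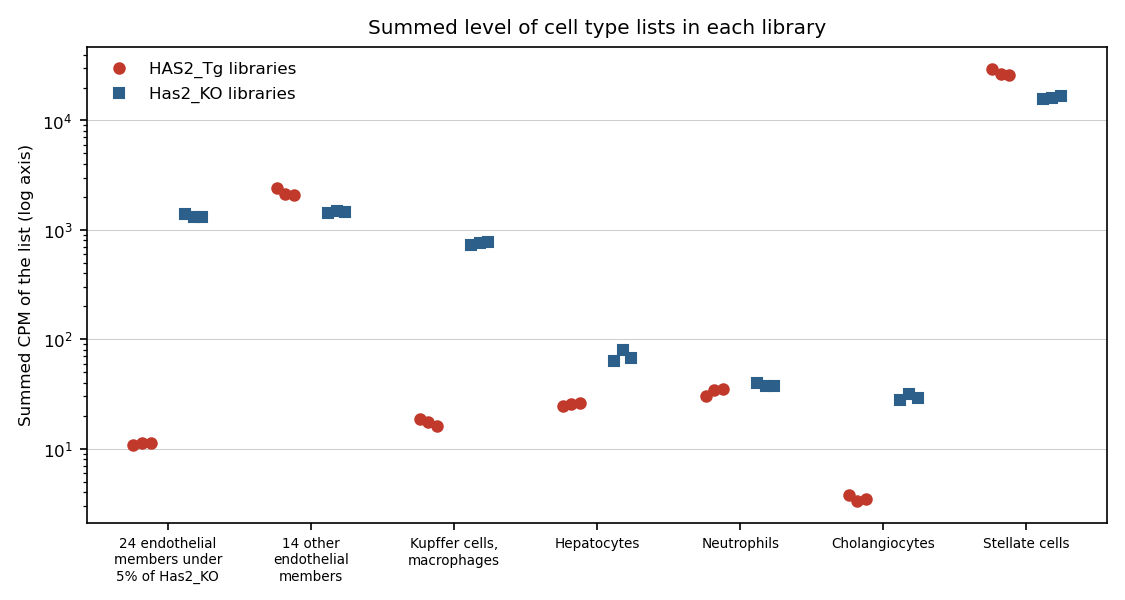
Summed CPM of 7 of the gene lists in each library, on a log axis (circles HAS2_Tg, squares Has2_KO). The 24 endothelial genes under 5% of Has2_KO, picked by that gap, sum to 10.9 to 11.3 CPM in HAS2_Tg and 1299 to 1400 CPM in Has2_KO. The other endothelial members sum to 2092 to 2397 CPM in HAS2_Tg and 1440 to 1496 CPM in Has2_KO. Stellate cell markers sum to 25857 to 29796 CPM in HAS2_Tg and 15812 to 16640 CPM in Has2_KO.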

How the data were processed

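RSEM and the mm10 build are named in the submitters' processing notes; versions are not given in the sources used here. There were 6 deposited files, 1 per library. Per the file headers, they list, for every gene, its NCBI identifier, its transcripts, a mean transcript length and an expected count, the number of reads RSEM assigned to it. FPKM values in the deposited files are also the authors', corrected for length and depth. A gene absent from a file was set to 0. Of 17909 identifiers, 17857 were named through the RefSeq gene table of GRCm38, of which mm10 is another name. Promoter windows are from RefSeq (GRCm38.p6).

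Expected counts were rounded, filtered with filterByExpr (about 10 counts in 3 libraries), scaled by TMM and tested for HAS2_Tg minus Has2_KO by the robust form of edgeR's quasi-likelihood test , against either direction, and p-values were adjusted by Benjamini and Hochberg's method over 13014 genes, at 0.05. SEs were derived from the F statistic, as the absolute log2 fold change over its root. CPM values use TMM-adjusted library sizes. Where HAS2_Tg held 0 counts, a floor of 3 over the group gave a lower bound, and where it held 1 to 3, the ratio of sums is given with a 95% exact interval; both cover counting error only, since the labels name no molecular identifiers and PCR copies may be counted. The script was tested on simulated counts, which had far fewer changed genes than these data and smaller fold changes than most members. The named genes were all members, the 6 smallest adjusted p in each direction among other endothelial genes, and the 2 highest genes by mean CPM in each group of each other cell type list; full values went to members that were higher, did not pass or had no count in 1 group, the 3 of each role with the highest FPKM, the 3 most negative fold changes and the transcription factors. Outside this rule, Lrat, Reln and Pdgfra were named from the stellate list. Some genes with no count in HAS2_Tg, or short of the filter there, were named from the other lists. Members and lists were chosen with earlier results of these data known. Alternatives were other scalings, filters, DESeq2, limma on log2(FPKM + 1) or log2(FPKM + 0.1) where 3 libraries reached an FPKM of 1, limma with no such filter, an adjusted p of 0.01, a test against 1.5-fold, and each library left out. Model fits used edgeR 4.0.16, DESeq2 1.42.0 and limma 3.58.1 in R 4.3.3; tables and plots used pandas 2.3.3, scipy 1.17.1, numpy 2.4.6 and matplotlib 3.10.9 under Python 3.11.15.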

Additional observations from a re-analysis of the deposited data

How the results depend on the processing

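No paired analysis was possible because the groups share no replicate numbers. Without each library in turn, 34 members were lower, 2 to 3 were higher (Eng was lost without Has2_KO replicate 7 or 9), the median log2 fold change was -5.92 to -5.62, and 4188 to 5624 genes passed; other endothelial genes gave 30 to 32 lower and 6 to 7 higher. Over single members and alternatives, 615 results kept their direction and side of the threshold, 10 lost the threshold, 4 gained it and none reversed. The median was -2.79 with limma on log2(FPKM + 1), -5.03 on log2(FPKM + 0.1) and -2.39 on log2(FPKM + 1) without a filter, since the pseudocount shrinks changes of low genes. Against a fold of 1.5, 1597 genes passed, 33 members were lower, 1 member (Plvap) was higher and 1 other endothelial gene was higher. The stricter filter left 11 members untested, with 23 of the rest lower, and 18 other endothelial genes lower, since fewer genes were tested. Without the 50 highest genes, the 38 made up 0.246% of a HAS2_Tg library and 0.337% of a Has2_KO library, or 0.0126% (HAS2_Tg) and 0.160% (Has2_KO) without the stellate-shared members. As shares of summed FPKM these were 0.189% in HAS2_Tg and 0.232% in Has2_KO, and 0.0153% in HAS2_Tg and 0.106% in Has2_KO. In the 250 bases before the start alone, CCGGAA stood in 12.03% of all promoters, AGATAA in 9.99%, ACAATG in 10.7% and CAGCTG in 13.0%; in the full window AGGAAG stood in 56% of member and 35.4% of all promoters. Counts below about 10 per library limit the ratios of the nearly absent genes.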
